A study of Mus musculus with 3 samples.

Results

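The vacuolar H+-ATPase and the lysosomal platform of mTORC1 were described from 35 genes, taken by symbol out of 55536 gene rows in the deposited tables. They were 9 genes of the V0 membrane sector, 9 of the V1 catalytic sector, 2 accessory subunits, the 5 Ragulator genes, 3 Rag GTPases with folliculin, 3 MiT/TFE transcription factors, and the genes of mTOR, Raptor and Rheb. All 35 symbols matched 1 gene each. The cells were macrophages grown in culture from the bone marrow of C57BL/6J mice and given Lipid A, the Tlr4-binding part of bacterial lipopolysaccharide, at 100 ng/ml for 20 min; total RNA of their cytosolic fraction was depleted of ribosomal RNA and sequenced. The 3 libraries all belong to this 1 condition. They carry biological replicate numbers 1 to 3 but the same donor identifier. An SD over them can therefore be partly technical. Neither unstimulated cells nor nuclear RNA is analysed here, so levels are given and no gene is said to be induced or repressed. With 3 libraries of 1 group a sign-flip test cannot go below a two-sided p of 0.25, and no test was run.

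The V-ATPase is a rotary pump: the V1 sector hydrolyses ATP in the cytosol, and the V0 sector carries protons through the membrane into the lumen of lysosomes and endosomes. On the lysosomal surface the pump contacts the Ragulator scaffold, which holds the Rag GTPases, and Rags loaded in response to amino acids recruit mTORC1 to its activator Rheb. Active mTORC1 phosphorylates the MiT/TFE factors and keeps them in the cytosol, and these factors in turn drive lysosomal genes, V-ATPase genes among them. Macrophages depend on the pump to acidify phagosomes.

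Gene rows summed to 27282444 expected counts in replicate 1, 81509889 in replicate 2 and 37131774 in replicate 3. A gene at 0 counts could still hold up to 3, which is 0.110, 0.0368 and 0.0808 CPM in these libraries, for counting error only. TPM, a level per transcript length, has a fixed sum, and nuclear-encoded protein-coding genes took 25.0%, 22.0% and 19.7% of it. Values called rescaled below were set to the nuclear protein-coding total of each library. The 6 macrophage marker genes were all detected, that is at 1 TPM or more in all 3 libraries, with a median of 415 TPM. None of 6 osteoclast markers, 1 of 4 neutrophil markers, none of 4 T and B cell markers and none of 4 fibroblast and epithelial markers was.

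Nearly the whole list was expressed. Detection was reached by 33 of the 35 members, against 40.5% of 22015 nuclear protein-coding genes. The exceptions were Atp6v0e2 and Atp6v1g2. The median member stood at 35.02 TPM, against 6.96 TPM for the 8915 detected nuclear protein-coding genes. The list was chosen with earlier results of these data known, and silent isoform genes such as Atp6v0a4 stand outside it. Its detected share and its median can therefore partly restate that choice. Together the members held 1.01 ± 0.0155% of nuclear protein-coding TPM (SD, n = 3). By role, list medians were 81.8 TPM for the accessory subunits, 80.8 TPM for V0, 66.3 for V1, 30.5 for Ragulator, 16.9 for the Rag and folliculin genes, 10.1 for the MiT/TFE factors and 6.47 for mTOR, Raptor and Rheb.

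**Figure D1:**
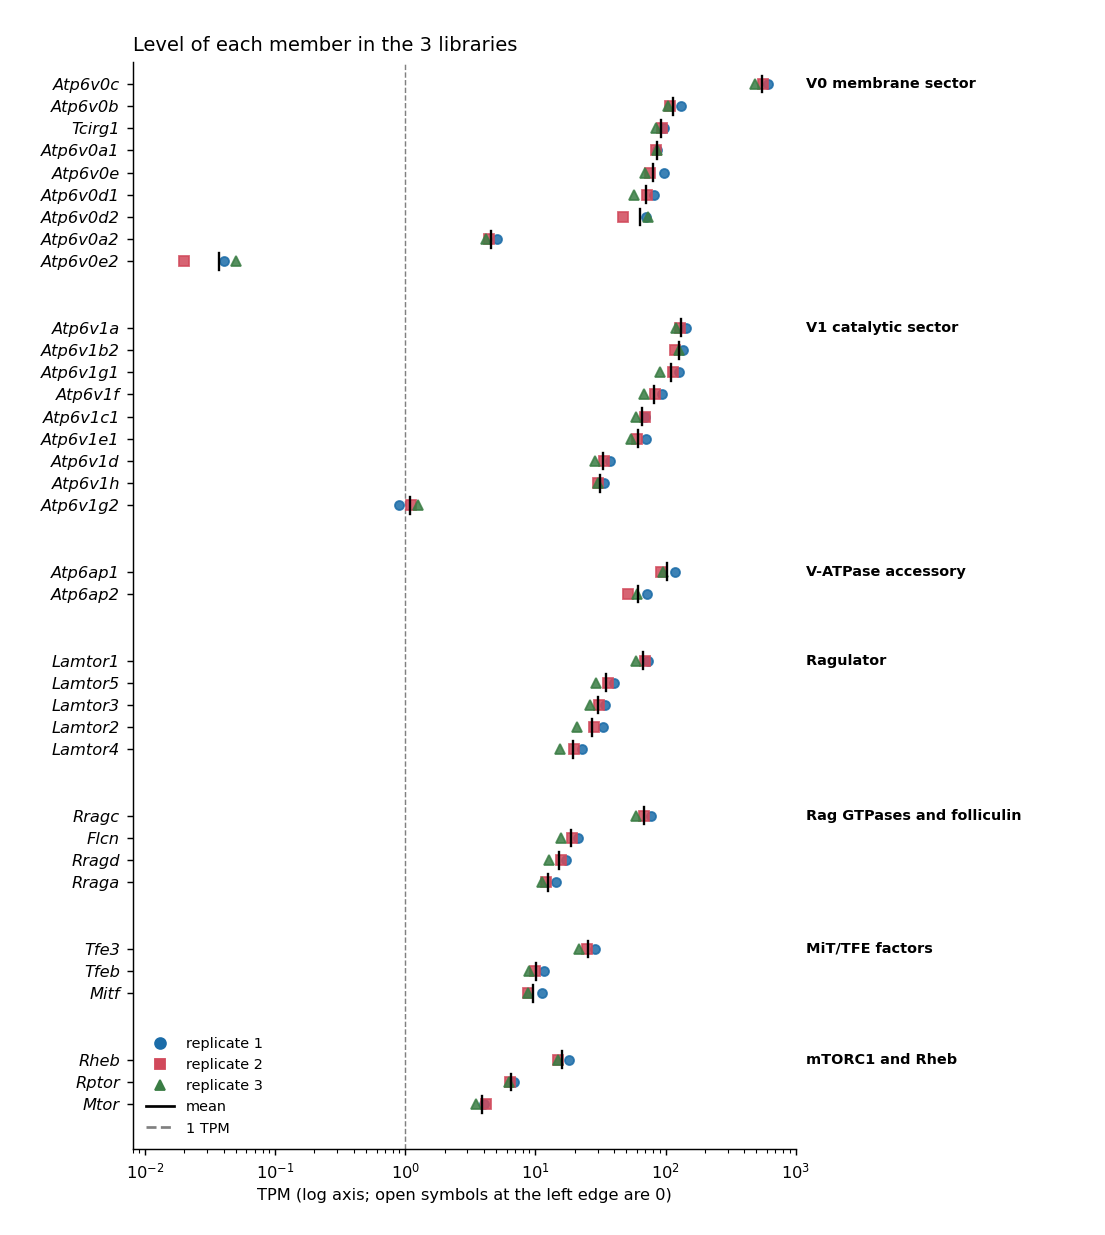
TPM of the 35 members (log axis) in the 3 libraries, grouped by role and ordered by mean within each group; symbols are libraries, the black tick is their mean and the dashed line marks 1 TPM. Atp6v0c stands furthest to the right at 555 TPM, and only Atp6v0e2 and Atp6v1g2 have a library below 1 TPM.

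In the V0 sector the proteolipid gene Atp6v0c (ENSMUSG00000024121.13, mm10 chr17:24163866-24169702, minus strand), whose product forms the proton-carrying ring, was the highest member by a wide margin. It had 617, 558 and 489 TPM in replicates 1, 2 and 3, a mean of 555 ± 64.1 TPM (SD, n = 3), above 99.6% of detected nuclear protein-coding genes. After rescaling its highest library was 1.03 times its lowest. Atp6v0b, the related proteolipid of the same ring, averaged 115 ± 14.8 TPM. Atp6v0c was 4.83-fold above Atp6v0b, a log2 ratio of 2.27 ± 0.08, and it was the higher of the pair in every library. A processed pseudogene, Atp6v0c-ps2, is 99.8% identical to Atp6v0c over 465 bases and was listed at 6.55, 2.91 and 2.63 TPM; reads of the pair can be split by the estimate.

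The a subunit carries the proton half-channels and helps to set where the pump resides. Tcirg1 encodes the a3 isoform, known for lysosomes and for the osteoclast plasma membrane. Its level was 97.0, 93.4 and 84.9 TPM (91.7 ± 6.19, SD, n = 3), against 86.5, 84.8 and 85.8 TPM for Atp6v0a1 (85.7 ± 0.842), the a1 isoform known from synaptic vesicles. The genes were thus nearly level: Tcirg1 was above Atp6v0a1 in replicates 1 and 2 and below it in replicate 3. Their log2 ratio was 0.10 ± 0.10, and in the second transcript table, estimated directly from the reads, it was -0.15, so the order of the pair was not fixed by these data. Atp6v0a2, the Golgi and endosomal a2 isoform, was far lower at 5.04, 4.38 and 4.16 TPM, 19.0-fold below Atp6v0a1. Of the TPM of the a family, Tcirg1 held 50.4 ± 1.58%, Atp6v0a1 47.1 ± 1.69% and Atp6v0a2 2.48 ± 0.164%. The kidney isoform gene Atp6v0a4, not a member, had 0 counts in every library.

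The d subunit couples the ring to the central stalk of V1. Atp6v0d2 (ENSMUSG00000028238.6, chr4:19876841-19922605, minus strand), the isoform known from osteoclasts and macrophages, had 70.8, 47.1 and 72.8 TPM, against 82.0, 72.0 and 57.6 TPM for the ubiquitous Atp6v0d1. Which of them led changed with the library: Atp6v0d2 held 46.3%, 39.5% and 55.8% of the pair's TPM in replicates 1, 2 and 3. The log2 ratio was -0.16 ± 0.48, an SD above the mean itself. It was -0.21, -0.61 and 0.34 in replicates 1, 2 and 3, and its mean without replicate 2 was 0.06. After rescaling, Atp6v0d2 stood at 284, 214 and 370, with its highest library 1.73 times its lowest, the only detected member past 1.5. The second table gave shares of 45.9%, 38.5% and 54.6%. Osteoclast markers summed to 3.30, 2.05 and 2.21 TPM in the same libraries, with Calcr at 0 counts in all and Ocstamp at 0, 1 and 0 counts. Acp5 had 1.81, 0.92 and 1.12 TPM and Ctsk 1.20, 0.85 and 0.86 TPM. Calcr and Ocstamp were thus at or near 0, and Acp5 and Ctsk were low but counted, with 103, 174 and 102 counts for Acp5 and 78, 183 and 88 for Ctsk. After rescaling, Acp5 had 7.25, 4.18 and 5.70, lowest in replicate 2 like Atp6v0d2, with a highest library 1.73 times its lowest. Acp5 was highest in replicate 1, while Atp6v0d2 was highest in replicate 3. Ctsk, with rescaled values of 4.81, 3.86 and 4.38, had the same order as Acp5. Dcstamp, with 9, 23 and 14 counts, was lowest in replicate 3, at 0.881, 0.818 and 0.509. Mmp9, with 11, 41 and 31 counts, was lowest in replicate 1, at 0.280, 0.455 and 0.662. Neutrophil markers summed to 1.53, 1.93 and 3.35 TPM, most of it from Ngp, the 1 detected, with 1.26, 1.74 and 2.83 TPM. Mpo had 0.16, 0.09 and 0.27 TPM, Elane 0.11, 0.10 and 0.23 TPM, and Ly6g 0, 0 and 0.02 TPM. The part of either cell type in the spread of Atp6v0d2 was not tested. In bulk RNA, fewer cells of a type and less RNA per cell cannot be told apart.

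Atp6v0e2, known mainly from brain, was close to its counting limit with 3, 6 and 5 counts, against 2918, 7605 and 3323 counts for Atp6v0e, the small membrane subunit gene. Its share of the pair's counts was 0.103% (exact binomial interval at 95% 0.0212 to 0.300), 0.0788% (0.0289 to 0.172) and 0.150% (0.0488 to 0.350). Atp6v0e itself averaged 80.8 ± 14.75 TPM. The e subunit was thus carried almost wholly by Atp6v0e at this depth.

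**Figure D2:**
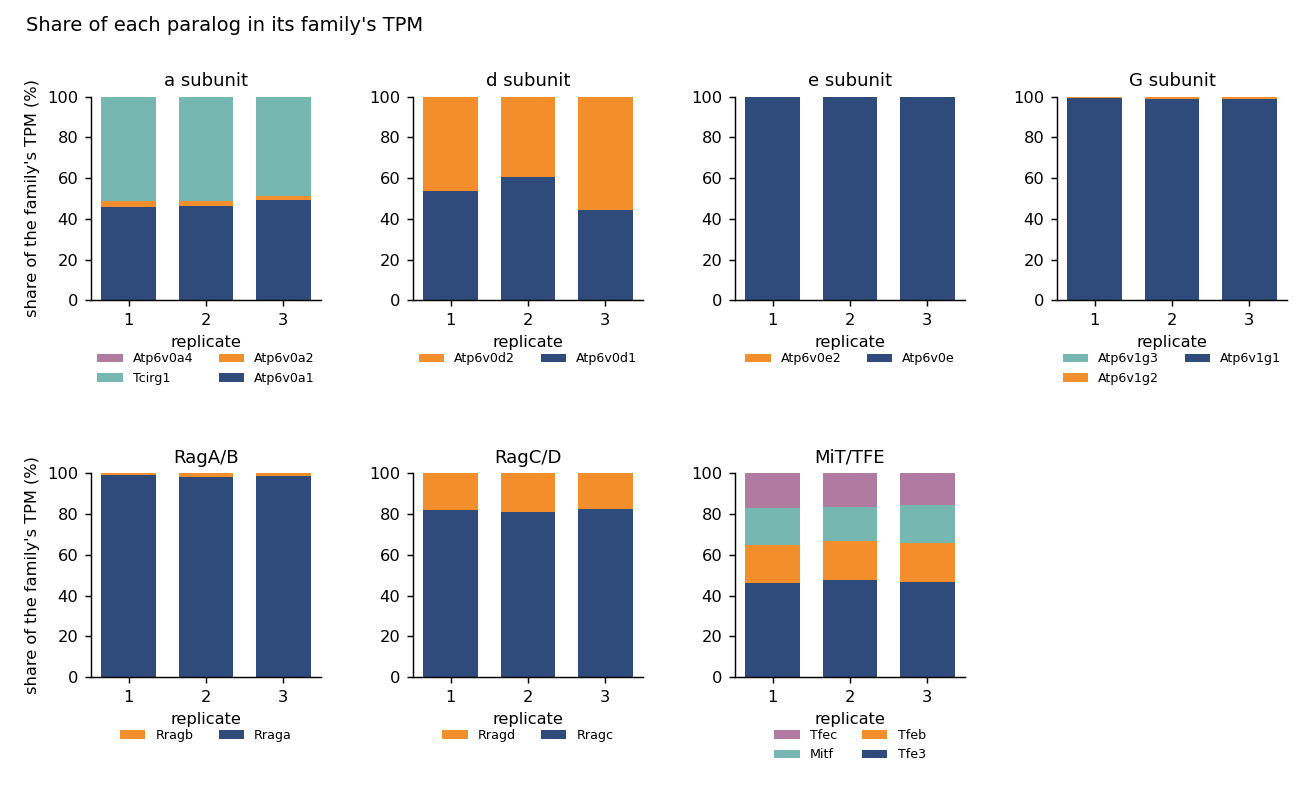
Share of each paralog in the TPM of its family (%), as stacked bars for replicates 1, 2 and 3. The a subunit is divided between Tcirg1 and Atp6v0a1, the division between Atp6v0d2 and Atp6v0d1 changes with the library, and Atp6v0e2, Atp6v1g2 and Rragb hold 1.22% or less on average.

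The V1 sector hydrolyses ATP on alternating A and B subunits around a rotating stalk. Its catalytic subunit gene Atp6v1a had 144, 128 and 120 TPM (131 ± 12.2, SD, n = 3). Atp6v1b2, a B subunit gene, had 137, 118 and 127 TPM (127 ± 9.38). The means of these partner genes differed by less than either SD. The kidney B gene Atp6v1b1, not a member, had 0, 0 and 2 counts.

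Stalk and regulatory subunits of V1 spread over a lower range. Atp6v1g1, of the peripheral stalks, averaged 111 ± 18.5 TPM and its partner Atp6v1e1 61.8 ± 7.96 TPM. Atp6v1f and Atp6v1d, which build the central rotor, averaged 81.6 ± 12.4 and 33.2 ± 4.23 TPM. Atp6v1c1, which bridges the stalks and is released when the sectors part, averaged 66.3 ± 5.74 TPM, and Atp6v1h, which restrains free V1, averaged 31.4 ± 2.05 TPM. Partners within the rotor therefore did not share a level: Atp6v1f exceeded Atp6v1d in every library. Atp6v1e1 had the smallest spread of all detected members after rescaling, with a highest library 1.02 times its lowest.

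Atp6v1g2, the G isoform known from neurons, had 46, 194.05 and 105 expected counts and averaged 1.09 ± 0.176 TPM. It missed the 1 TPM limit only in replicate 1, at 0.90 TPM. It held 1.00 ± 0.328% of the TPM of its family. Its rescaled values of 3.60, 5.05 and 6.36 covered a 1.77-fold range. Atp6v1g2 shares 144 exonic bases with Nfkbil1 on the other strand, a gene at 3.93 TPM, and with strandedness not given, reads within that stretch, 5.74% of the exonic bases of Atp6v1g2, cannot be told apart.

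The medians of the sectors were close. The log2 ratio of the V0 median over the V1 median was 0.30, 0.13 and 0.29 in replicates 1, 2 and 3, a mean of 0.24 ± 0.10. Of the accessory subunits, Atp6ap1, a luminal glycoprotein needed for assembly of the pump, had 119, 93.1 and 95.7 TPM. Atp6ap2, also known as the prorenin receptor, had 72.0, 51.2 and 60.4 TPM. Both were lowest in replicate 2 after rescaling, and the highest library of Atp6ap2 was 1.32 times its lowest.

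Ragulator, the scaffold that anchors the Rags, was detected in full. Lamtor1 encodes the lipidated anchor that wraps the other subunits and was the highest of the 5 genes, with 72.9, 69.2 and 59.6 TPM (67.2 ± 6.89, SD, n = 3). The remaining subunits form roadblock-fold pairs inside it. Lamtor5 averaged 35.02 ± 5.61, Lamtor3 30.5 ± 4.08, Lamtor2 27.4 ± 6.03 and Lamtor4 19.4 ± 3.82 TPM. This order, with Lamtor1 first, held in every library. The means of Lamtor5 and Lamtor3, and of Lamtor3 and Lamtor2, differed by less than the larger of their SDs. Each of these genes but Lamtor1 was lowest in replicate 3 after rescaling, most of all Lamtor2 with 132, 129 and 107. Lamtor1 shares 600 exonic bases with Lrrc51 on the other strand, a gene at 0.513 TPM.

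The Rag GTPases work as a dimer of RagA or RagB with RagC or RagD. Rragd had 17.1, 15.8 and 12.7 TPM (15.2 ± 2.28, SD, n = 3), against 77.3, 68.7 and 59.6 TPM for Rragc (68.5 ± 8.83). Rragd was thus 4.53-fold lower, with a log2 ratio of -2.18 ± 0.06 and the same order in every library. Rraga, on the other side of the dimer, had 14.3, 12.1 and 11.2 TPM (12.5 ± 1.60), below both. Rragb, not a member, had 8, 41 and 25 counts and held 1.22 ± 0.597% of the RagA and RagB TPM. Flcn, folliculin, the GTPase-activating protein for RagC and RagD, averaged 18.7 ± 2.76 TPM. Its partner genes stand outside the list of members: Fnip2 averaged 75.1 ± 9.45 TPM and Fnip1 15.7 ± 2.03 TPM, so Fnip2 was 4.78-fold higher, with a log2 ratio of 2.26 ± 0.13.

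Among the MiT/TFE factors Tfeb was lower than Tfe3. Tfeb had 11.7, 9.84 and 8.88 TPM (10.1 ± 1.42, SD, n = 3), against 28.7, 25.1 and 21.6 TPM for Tfe3 (25.1 ± 3.53). The log2 ratio of Tfeb over Tfe3 was -1.31 ± 0.04, a 2.48-fold lower level with the same order in all 3 libraries. Mitf, the founding member of the family, had 11.3, 8.80 and 8.75 TPM and lay just below Tfeb in every library, with a log2 ratio of -0.08 ± 0.08 that was 0.09 in the second table. Tfec, the macrophage-restricted relative and not a member, had 10.8, 8.71 and 7.20 TPM. Mitf held 17.9 ± 1.05% of the TPM of the 4 genes, Tfeb 18.9 ± 0.226%, Tfec 16.4 ± 0.874% and Tfe3 46.8 ± 0.986%.

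The genes of mTORC1 itself were at the low end. Mtor, the kinase, had 4.04, 4.19 and 3.49 TPM (3.91 ± 0.369, SD, n = 3). Rptor, the subunit that binds Rags and substrates, had 6.80, 6.33 and 6.28 TPM (6.47 ± 0.287). Rheb, the GTPase that activates the kinase, had 18.1, 14.9 and 14.9 TPM (16.0 ± 1.84). Mtor lay above 29.3% of detected nuclear protein-coding genes, Rptor above 47.3% and Rheb above 75.3%. These ranks rest on all transcripts of a gene. Coding transcripts of Rptor stood at 1.27, 1.79 and 1.51 TPM in the first transcript table, a share on which the tables disagreed, as given below.

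MiT/TFE factors bind the E-box core CACGTG, and the extended form TCACGTGA is the heart of the motif described in lysosomal promoters. Promoter windows from RefSeq (GRCm38.p6, the assembly of mm10), 250 bases before to 50 after a start, were matched for 28 of the 35 members. Those without an entry were Atp6v0a2, Atp6v0d2, Atp6v1b2, Atp6v1c1, Atp6v1g1, Atp6v1h and Lamtor3. Both motifs read the same on either strand, and every TCACGTGA also counts for the core. Some genes have several windows, with 38 for the 28 members and 20150 in all. The shares below are per gene and are not adjusted for that. The core was found for 8 of 28 members (28.6%), against 9.18% of 16522 protein-coding genes and 12.9% of the 7159 among them that were detected here. TCACGTGA was found for 3 of 28 members (10.7%), against 1.45% and 2.60%. The members with CACGTG were Atp6v0b, Atp6v0d1, Atp6v0e, Atp6v1a, Lamtor1, Lamtor4, Rheb and Rragc. Sites of Atp6v0b, Lamtor4 and Rheb are not shown. That of Rheb was matched from a RefSeq start 263 bases from the start of its leading transcript. For the others, windows of 30 bases around a site hold letters behind these counts. They are shown for that reason, 5′ to 3′ on the gene's strand, with the motif in capitals. They lie at chr16:44139373-44139402 (minus) for Atp6v1a, chr8:105566050-105566079 (minus) for Atp6v0d1, chr17:26676387-26676416 (plus) for Atp6v0e, chr4:123917309-123917338 (plus) for Rragc and chr7:101905757-101905786 (plus) for Lamtor1.
Atp6v1a: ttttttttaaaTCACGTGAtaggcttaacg
Atp6v0d1: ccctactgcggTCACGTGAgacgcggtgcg
Atp6v0e: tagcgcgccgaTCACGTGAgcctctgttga
Rragc: ggtgattccgggCACGTGatagtaccactt
Lamtor1: ctgccttcctatCACGTGccgcgggtccgc
Atp6v1a, Atp6v0d1 and Atp6v0e hold the extended form, and Rragc and Lamtor1 the core alone. The CACGTG core begins 131 bases before the RefSeq start in Atp6v1a, 112 in Rragc and 68 in Lamtor1. The core of Atp6v0d1 spans the start and that of Atp6v0e lies just after it. A match is a description of letters, and no binding was measured.

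The members varied little between libraries. After rescaling, the highest library was at most 1.5 times the lowest in 32 of 33 detected members, against 94.6% of 8915 detected nuclear protein-coding genes, a share near the background. The median ratio of highest to lowest was 1.12 for members and 1.14 for the background. Replicates 1, 2 and 3 were the highest for 9, 12 and 12 members, against 30.1%, 31.4% and 38.5% of the 8915 genes, and the lowest for 9, 12 and 12, against 36.7%, 32.1% and 31.3%. By role, Ragulator genes were the lowest in replicate 3 in 4 of 5 cases, and 5 of 8 detected V0 genes were the highest there, against 31.3% and 38.5% of the 8915 genes; these are counts of a few genes and were not tested. Atp6v0a1 shows the V0 side, with rescaled values of 346, 386 and 436. The log2 ratio of replicate 3 over replicate 1 correlated with effective transcript length over the 33 members with a Spearman rho of 0.56, and over 8915 genes with 0.13, points that share the same libraries and normalisation. For replicate 3 over replicate 2 the values were 0.38 over members and 0.29 over all these genes, and for replicate 2 over replicate 1 they were 0.20 and -0.16. The part of length in these differences was not tested.

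**Figure D3:**
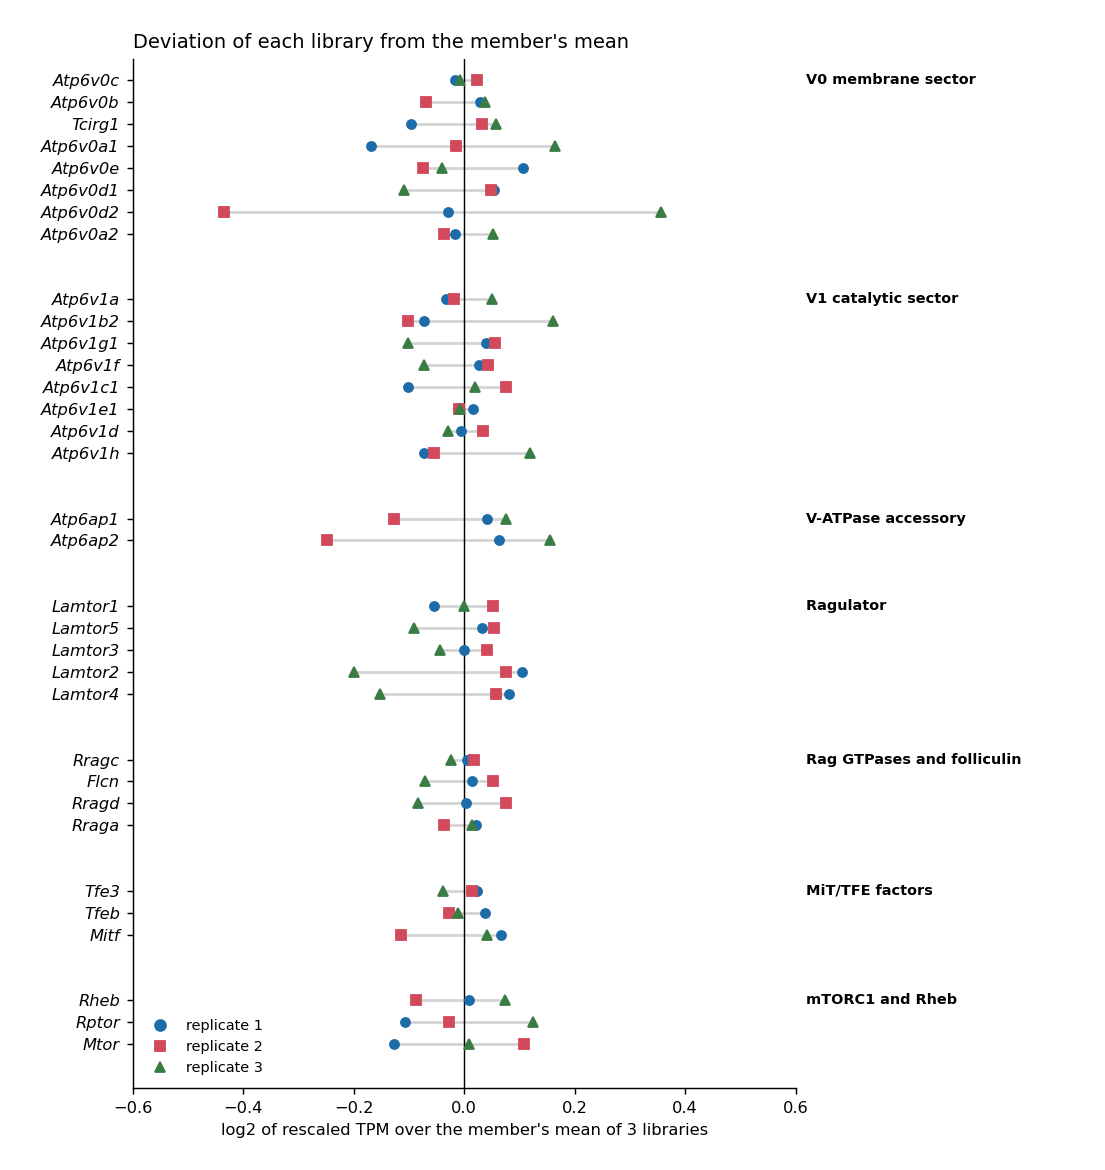
Log2 of the rescaled TPM of each library over the mean of its 3 libraries for the 33 detected members, grouped by role; symbols are libraries and the grey line joins lowest and highest. Atp6v0d2 has the widest line, from replicate 2 at the left to replicate 3 at the right, and most other members stay within a narrow band around 0.

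Transcripts annotated as protein-coding led most members. In each transcript table, 29 of the 33 detected members had 90% or more of their TPM in such transcripts. Over the 8915 detected nuclear protein-coding genes the share was 72.9% in the first table and 65.6% in the second. The same transcript led in both tables for 30 of the 33 members. That share was not computed over the 8915 genes, so it is not read as particular to the members. Atp6v1d and Rptor departed furthest.

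For Atp6v1d, the transcript Atp6v1d-202, annotated as retained_intron and 775 bases long, held 51.9%, 51.5% and 56.4% of the gene's TPM in the first table and 62.2%, 63.7% and 64.3% in the second. The full-length coding Atp6v1d-201, 3667 bases long, held 45.8 ± 2.88% in the first table and 35.5 ± 1.65% in the second. The retained transcript was thus ahead in every library of both tables on the TPM scale, and took 15.7 ± 1.62% of the gene's expected counts, which are not divided by length. Retained-intron transcripts reached 50% of TPM in 0.998% of the 8915 genes in the first table and 1.1% in the second. Atp6v1d-202 shares 688 of its bases with exons of Atp6v1d-201. Its other 87 bases, chr12:78845305-78845391 on the minus strand, are the only ones it does not share with that transcript, and are shown for that reason in capitals with the first 20 shared bases after them.
Atp6v1d-202: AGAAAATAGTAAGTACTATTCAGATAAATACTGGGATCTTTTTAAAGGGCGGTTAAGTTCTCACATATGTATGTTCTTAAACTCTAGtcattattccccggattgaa
Atp6v1d-201 in turn has 2277 bases at its 3′ end and 702 bases in 7 exonic blocks at its 5′ side that Atp6v1d-202 lacks. Coding transcripts of Atp6v1d stood at 17.7, 16.0 and 12.2 TPM, below the gene's 37.2, 33.7 and 28.8 TPM in the same libraries.

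For Rptor the tables disagreed. Rptor-211, annotated as a target of nonsense-mediated decay, held 51.6 ± 3.75% of TPM in the first table and 9.81 ± 2.24% in the second. The coding Rptor-201 held 23.0 ± 5.90% in the first and 61.7 ± 4.11% in the second. Retained-intron transcripts held 24.2 ± 2.58% and 25.8 ± 2.93%, a share on which the tables did not differ beyond their SDs. Rptor-211 lacks a 76-base exon of Rptor-201 at chr11:119811945-119812020 (plus strand), a length that is not a multiple of 3. That exon is shown in capitals between the 20 bases on either side in Rptor-201, as the stretch on which the assignment turns together with the transcript ends.
Rptor-201: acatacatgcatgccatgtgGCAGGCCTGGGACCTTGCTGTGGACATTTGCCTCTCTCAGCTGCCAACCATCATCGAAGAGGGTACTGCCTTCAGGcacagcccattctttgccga
Rptor-211 also lacks 549 bases of the first exon and has 169 further bases at the 3′ end. Which share is nearer the cells' own was not tested.

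**Figure D4:**
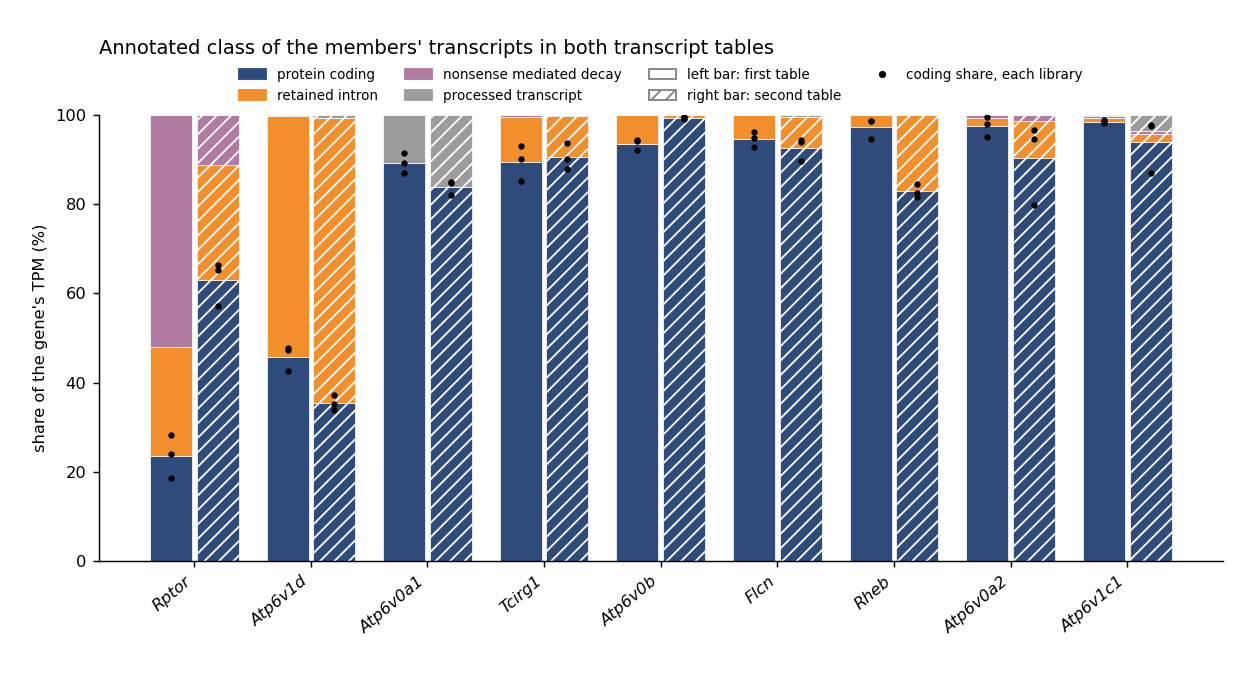
Mean share of gene TPM (%) by annotated transcript class in the first table (left bar, plain) and the second (right bar, hatched) for the detected members with under 95% coding in either; dots are the coding share in each library. Atp6v1d is led by retained-intron transcripts in both tables, and Rptor changes its leading class between them.

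Mitf differs between transcripts by an 18-base stretch, chr6:98006123-98006140 on the plus strand, whose inclusion keeps the reading frame and distinguishes known alternative forms of the factor. Transcripts with it held 79.6 ± 1.27% of the gene's TPM in the first table and 70.6 ± 3.55% in the second. Transcripts without it held 18.7 ± 1.63% and 27.4 ± 3.51%. The form with the stretch led in every library of both tables. It is shown in capitals within Mitf-202, the leading transcript.
Mitf-202: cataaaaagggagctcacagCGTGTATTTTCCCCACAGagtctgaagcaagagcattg
Mitf has several first exons. Transcripts that begin at the most upstream of them held 83.8 ± 2.25% of TPM in the first table and 87.8 ± 3.63% in the second.

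Transcript forms of other members were less settled. Rragd-203 held 66.6 ± 2.71% of the TPM of Rragd in the first table and 91.3 ± 4.93% in the second. Tfeb-212 held 49.5 ± 2.00% of Tfeb in the first table and 24.8 ± 2.96% in the second, where Tfeb-202 led with 57.5 ± 9.27%. Flcn was divided between Flcn-203, with 52.4 ± 1.64%, and Flcn-202, with 40.3 ± 3.69%, in the first table, and Flcn-202 averaged the higher in the second, with 47.4 ± 4.81%. All of these are annotated as coding. Tcirg1 had 10.2 ± 3.51% of its TPM in retained-intron transcripts in the first table and 9.20 ± 3.08% in the second. Rheb had 2.67 ± 2.28% and 17.1 ± 1.43% in the same class.

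The rest of the pathway had a lower median than the members, although Fnip2 and Sesn1 stood above the member median of 35.02 TPM. The division into members and others was made with earlier results of these data known, which can shape this difference. The median of 45 further genes was 2.97 TPM. Of them 35 were detected, against 40.5% of 22015 nuclear protein-coding genes, a share that also stands beside the counts by list below. None of 5 tissue-restricted V-ATPase isoform genes was: Atp6v0a4, Atp6v1c2, Atp6v1e2 and Atp6v1g3 had 0 counts in every library, beside Atp6v1b1 with 0, 0 and 2. Genes for assembly and regulation of the pump were detected in 10 of 11 cases. Oxr1, a TLDc-domain gene whose product can release V1, led them at 21.1 ± 1.86 TPM, followed by Dmxl1 at 16.8 ± 1.27 and Wdr7 at 13.4 ± 1.68 TPM, both of the complex that rejoins V1 with V0. Rogdi, of the same complex, and Tldc1 were the lowest detected, at 2.83 and 2.66 TPM, and Tldc2 had 1, 2 and 0 counts.

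Other genes around mTORC1 and the Rags were detected in 10 of 12 cases. After Fnip2 and Fnip1 came Akt1s1, the PRAS40 inhibitor of mTORC1, at 13.6 ± 1.08 TPM. Mlst8, the third core subunit of mTORC1, was the lowest detected at 2.06 ± 0.191 TPM. Rhebl1, the Rheb paralog, had 0.37, 0.25 and 0.23 TPM and Rragb 0.08, 0.21 and 0.16 TPM.

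The GATOR complexes, which set the nucleotide state of the Rags, and the amino-acid sensors upstream were detected in 15 of 17 cases. Sesn1, a leucine-binding sestrin, stood out at 58.6, 54.3 and 46.9 TPM (53.3 ± 5.95, SD, n = 3), against 4.54 TPM for Sesn2 and 2.13 TPM for Sesn3. Sec13, shared with the nuclear pore and the COPII coat, averaged 20.0 ± 2.83 TPM and Bmt2, the S-adenosylmethionine sensor known as SAMTOR, 8.30 ± 1.31 TPM. Kptn, of the KICSTOR anchor, was the lowest detected at 1.16 TPM. Castor1, the arginine sensor, had 1.19, 1.11 and 0.65 TPM and Itfg2, also of KICSTOR, 0.75, 0.88 and 0.84 TPM.

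**Figure D5:**
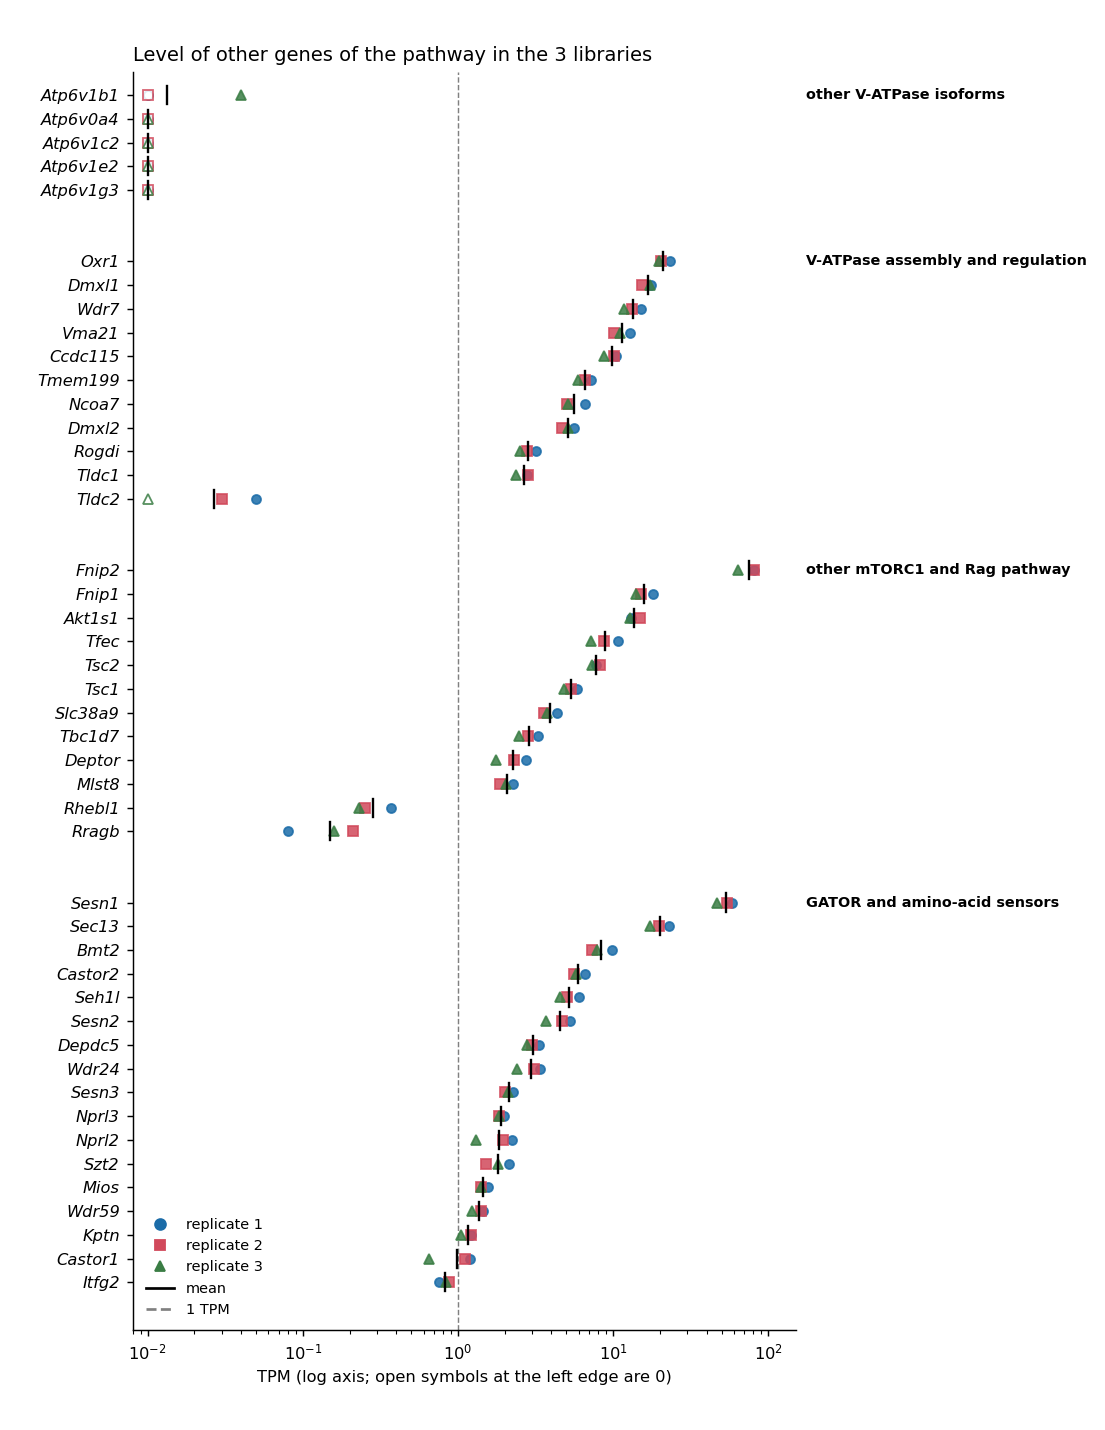
TPM of the 45 other genes of the pathway (log axis) in the 3 libraries, grouped by list; symbols are libraries, open at the left edge where the value is 0, the black tick is the mean and the dashed line marks 1 TPM. Fnip2 and Sesn1 stand furthest right, at 75.1 and 53.3 TPM. Of the 5 tissue-restricted isoform genes, Atp6v1b1 leaves the left edge in replicate 3, at 0.04 TPM, and the others lie at that edge.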

How the data were processed

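Ribosomal-RNA-depleted total RNA of the cytosolic fraction was sequenced in 3 libraries, grouped and numbered per the labels. Each library had a gene table and a pair of transcript tables on mm10 with GENCODE M21. Notes deposited beside them say that the gene table and the first transcript table came from transcriptome alignments, and the second from the reads without alignment files. Strandedness, tools and versions are details not given in the sources used here. As deposited by the authors, expected counts are estimated reads per gene or transcript. The deposited TPM values are scaled by length to a fixed sum per library, so a different content of small RNAs shifts all mRNAs together.

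Members and lists were chosen with earlier results of these data known. All members are named; of other pathway genes, the 3 highest and the 3 lowest of each list and those not detected. Tfec, Sesn2 and Sesn3 were named as relatives after their values were seen. Detection meant 1 TPM in all 3 libraries. Rescaled TPM was set to the nuclear protein-coding total of each library. Ratios are log2 within a library, with no pseudocount for single genes and 0.1 TPM for sector medians. No test across genes was run. The ratio of highest to lowest library was checked on simulated counts with counting error only, scaled to total counts. Rescaling of TPM was not part of that check. Python 3.11.15, pandas 2.3.3, numpy 2.4.6 and scipy 1.17.1 were used, edgeR 4.0.16 for TMM scaling of the counts, and blastn 2.17.0+ for stretches of at least 200 bases at 95% identity. Of the members, 9 had such a stretch in another gene, and 8 shared exonic bases with a gene on the other strand. The stretches lay in 13 other genes, of which only 1, Atp6v0c-ps2, was at 1 TPM or more in all libraries. Shares over all genes were not computed for these counts.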

Additional observations from a re-analysis of the deposited data

How the results depend on the processing

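Of 72 alternatives, 53 left a result in place, 15 moved it beyond 1 SD and 4 turned its sign. The counts of detected members and of members within 1.5-fold have no SD, and all their alternatives were entered among those left in place. The causes were not tested beyond what each setting does by construction. The log2 ratio of Tcirg1 over Atp6v0a1 was -0.15 in the second table and -0.41 on expected counts not divided by length. That of Atp6v0d2 over Atp6v0d1 was 0.57 on such counts and ran from -0.41 to 0.062 on leaving out a library each, above 0 without replicate 2. The median member level was 15.0 TPM in the second table, 48.1 TPM over members of at least 1 TPM and 157 after rescaling. Atp6v0e2 over Atp6v0e was -9.72 in the second table, -10.17 with posterior mean TPM, -6.29 with a pseudocount of 1 TPM and -9.87 on counts. Atp6v1g2 over Atp6v1g1 was -5.74 with a pseudocount of 1 TPM. Rragd over Rragc was -2.24 in the second table, -2.11 with a pseudocount of 1 TPM and -1.24 on counts. Tfeb over Tfe3 was -1.40 in the second table, -1.20 with posterior mean TPM, -1.23 with a pseudocount of 1 TPM and -1.78 on counts. The count of detected members ran from 31 to 34, that of members within 1.5-fold, over all 35 members, from 32 to 34, with 30 under a stricter limit, and the log2 ratio of the V0 over the V1 median ran from 0.21 to 0.33. Depth limits Atp6v0e2 most, at 3 to 6 counts. No paired analysis was possible because there is 1 group.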
